A study of Mus musculus with 11 samples.

Results

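The genes described here are the Hox genes of paralogue groups 8 and 9, which are expressed in the trunk of the mouse embryo: Hoxb8, Hoxc8, Hoxd8, Hoxa9, Hoxb9, Hoxc9 and Hoxd9. The 7 genes were listed by name, and 6 of them had a probe set that carries 1 gene symbol, 8 probe sets in all, among 18193 genes with such a probe set. Hoxb8 had none, because its probe set also carries the symbol of its neighbour Hoxb7, so no level is given for it. Per gene the probe set of highest mean over the 11 arrays was used, and the second probe sets of Hoxa9 and Hoxd8 served as a check. All 6 measured genes passed the filter on low values, a mean of at least 4.30 on the log2 scale, and entered the tests with 13338 genes in all.

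RNA was measured in neural tissue of C57BL/6 mouse embryos at embryonic day (E) 8.5 and 9.5, with no mutation or drug treatment named in the labels. The 4 groups were the open neuroepithelium, with 3 arrays at each stage, and the closed neural tube, with 2 arrays at E8.5 and 3 at E9.5. Open tissue lies caudal to the point where the neural plate has closed into a tube. Closed tissue was taken from the breadth of a somite rostral to that point up to the fifth-last or sixth-last somite. Closure and axial level therefore differ together between the regions, and the axial level of each piece can differ between the stages. All samples carried closely attached notochord and had been incubated in 2.5% pancreatin and 0.5% trypsin, for 5 min at E8.5 and 8 min at E9.5, so incubation time and stage cannot be told apart. Tissue was pooled by litter, and the 12 samples first hybridized came from 111 embryos. Of these, 1 from closed E8.5 tissue failed the quality assessment of the authors and was left out by them. The open piece was cut so as to leave out primitive streak at E8.5 and tail bud at E9.5 as far as possible.

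Hox genes encode homeodomain transcription factors and lie in 4 clusters, Hoxa to Hoxd. Within a cluster, genes of higher paralogue number are switched on later and reach a more caudal anterior limit, and genes of the same number in different clusters (paralogues) are copies of 1 ancestral gene. Hox genes of groups 8 and 9 act at thoracic levels of the trunk: Hoxc8 patterns brachial motor neurons and thoracic ribs, and Hoxc9 sets the thoracic motor columns of the spinal cord. The caudal factors Cdx1, Cdx2 and Cdx4, with Wnt and fibroblast growth factor (FGF) signals, are known to activate trunk Hox genes in the caudal epiblast and neural plate. Meis and Pbx proteins bind DNA together with Hox proteins.

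The stretches of 250 bases before the start sites of 3 of the genes are shown because Hoxd8 and Hoxd9, neighbours in the Hoxd cluster, had the highest correlation across arrays of all pairs below, and because Hoxb8 is the gene of the list that these arrays cannot resolve. The sequences are from RefSeq, build GRCm38.p6, which lists such a stretch for 4 of the 7 genes (Hoxa9 is the other). They run 5′ to 3′ along the gene, and capitals mark the letters TTTAT on either strand, the core of the Cdx binding motif, which posterior Hox proteins also bind.
Hoxd8, chr2:74704365-74704614, + strand: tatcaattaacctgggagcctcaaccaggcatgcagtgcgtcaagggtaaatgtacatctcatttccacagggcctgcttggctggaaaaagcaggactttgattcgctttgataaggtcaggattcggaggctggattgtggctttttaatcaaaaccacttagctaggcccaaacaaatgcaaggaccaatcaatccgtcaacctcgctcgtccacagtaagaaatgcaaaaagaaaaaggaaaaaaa
Hoxd9, chr2:74697513-74697762, + strand: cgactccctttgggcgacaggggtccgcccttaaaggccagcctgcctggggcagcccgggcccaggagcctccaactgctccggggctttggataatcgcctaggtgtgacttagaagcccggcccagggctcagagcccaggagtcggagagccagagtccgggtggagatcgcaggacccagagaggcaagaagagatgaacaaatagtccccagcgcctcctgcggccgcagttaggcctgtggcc
Hoxb8, chr11:96281655-96281904, + strand: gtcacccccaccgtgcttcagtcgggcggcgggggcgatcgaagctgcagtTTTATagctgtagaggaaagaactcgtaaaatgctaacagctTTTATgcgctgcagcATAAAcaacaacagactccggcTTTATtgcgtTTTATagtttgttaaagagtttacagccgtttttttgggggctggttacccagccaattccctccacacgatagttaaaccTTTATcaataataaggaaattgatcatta

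Hoxb8 holds 6 matches to TTTAT, 5 on the strand of the gene and 1 on the other, whereas Hoxd8, Hoxd9 and Hoxa9 hold 0 in this window. Of 32851 listed stretches of the same length, 37.3% hold at least 1. The letters TGATNNAT of the Pbx-Hox motif occur once in Hoxb8, on the other strand and apart from the marked letters, and in 7.68% of all stretches. The Meis motif TGACAG occurs in 15.9% of all stretches and in none of the 4. These are matches of letters in a short window and not measured binding.

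The deposited values are log2 signals, and the medians of the 11 arrays lay between 4.80 and 4.90. The number of arrays limits the precision. The excess of 3-prime over 5-prime signal in the Gapdh and Actb control probe sets, a measure of RNA quality, reached 2.20 (log2) in replicate 1 and 2.48 in replicate 2 of the open E9.5 group, and lay from 1.14 to 1.82 in the other 9 arrays. With this excess as a covariate, no call of the 6 genes between groups changed. Levels of different probe sets are not compared with each other, since their affinities differ. Differences below are log2 differences from 1 linear model of the 4 groups (limma), with the standard error (SE) and p-values adjusted over all 13338 genes by the Benjamini-Hochberg method. A gene was called at an adjusted p under 0.05.

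**Figure D1:**
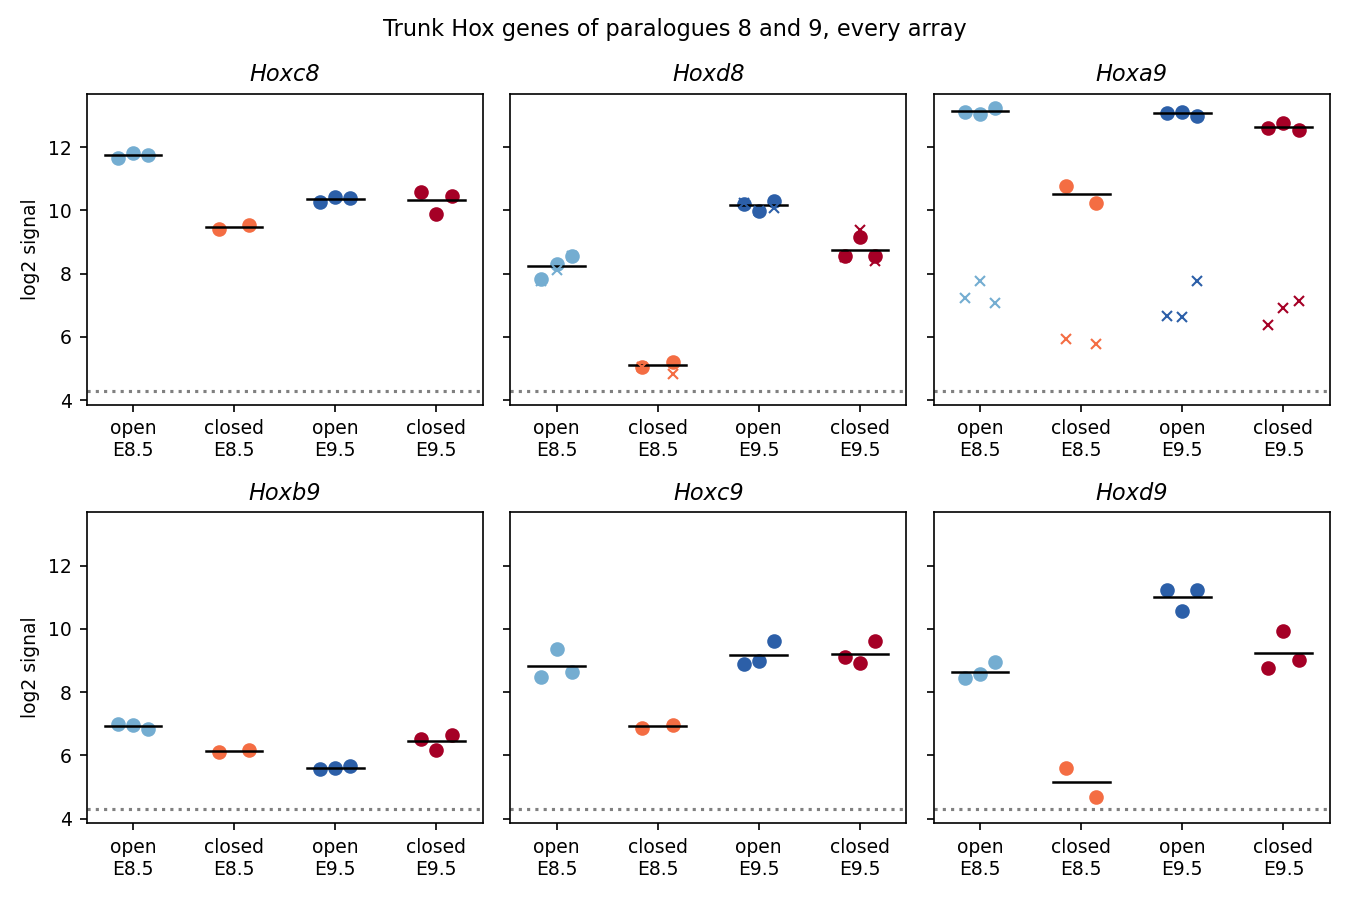
Log2 signal (vertical axis) of 6 trunk Hox genes in every array, by region and stage; circles are the leading probe set, bars its group mean, crosses the second probe set of Hoxa9 and Hoxd8, and the dotted line the filter at 4.30. The closed E8.5 arrays are the lowest for every gene but Hoxb9, which is lowest in open E9.5 tissue.

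At E8.5 the comparison asks which genes differ between the closed tube and the open plate. All 6 measured genes were lower in closed tissue, by log2 differences of 0.79 to 3.52 in size, and in each the groups did not overlap. Of all genes tested, 7.17% were called at E8.5, 3.38% lower and 3.79% higher, and groups did not overlap for 27.5%. The median difference was -2.45 over the 6 genes and 0.00 over all genes tested.

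Both Hoxd genes had the widest gap at E8.5. Hoxd9 was 8.43, 8.56 and 8.96 in open tissue and 5.59 and 4.69 in closed tissue. The 2 closed arrays lie near the filter level of 4.30 and differ from each other by more than the 3 open arrays do. The difference was -3.52 (SE 0.36, adjusted p = 5.34e-05), 11.4-fold lower in closed tissue. Hoxd8, next to Hoxd9 in its cluster, was 7.83, 8.29 and 8.57 in open and 5.03 and 5.21 in closed tissue. The difference for Hoxd8 was -3.11 (SE 0.23, adjusted p = 5.18e-06), 8.62-fold lower, and its second probe set gave -3.20.

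Hoxa9 and Hoxc8 followed with gaps far wider than the spread of their arrays. Hoxa9, also known for its role in blood stem cells, was 13.12, 13.05 and 13.25 in open and 10.77 and 10.24 in closed tissue. Its difference was -2.63 (SE 0.13, adjusted p = 2.85e-07). The second probe set of Hoxa9 reads much lower, 7.23, 7.76 and 7.08 against 5.93 and 5.76, and gave -1.52 with the same direction. The leading Hoxa9 probe set lies at the 99.0th percentile of all probe sets, where array signal can approach its ceiling, so that differences among its highest values may be understated. Hoxc8 was 11.66, 11.83 and 11.74 in open and 9.42 and 9.55 in closed tissue, a difference of -2.26 (SE 0.17, adjusted p = 5.77e-06).

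Hoxc9 and Hoxb9 had the smaller differences at E8.5. Hoxc9 was 8.47, 9.36 and 8.64 in open and 6.87 and 6.97 in closed tissue, where the 3 open arrays are spread more widely than the closed ones. The difference was -1.90 (SE 0.29, adjusted p = 0.00149). Hoxb9, which acts with its paralogues in patterning the thoracic ribs, was 7, 6.96 and 6.83 in open and 6.10 and 6.18 in closed tissue. Its difference was -0.79 (SE 0.15, adjusted p = 0.0054), 1.73-fold lower in closed tissue. The 1 probe set of Hoxb9 read from 5.56 to 7 over all arrays, with no second one as a check. Sizes of change from different probe sets need not be comparable.

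At E9.5 the same comparison gave a divided picture. Hoxd8 and Hoxd9 were lower in closed tissue, Hoxb9 was higher, and Hoxa9, Hoxc8 and Hoxc9 did not pass. Of all genes tested, 8.54% were called at E9.5, 5.79% lower and 2.75% higher (1139 genes, and 2221 with arrays paired by replicate number as a block). Groups did not overlap for 4 of the 6 genes and for 22.5% of all genes. The median over the 6 genes was -0.23, against -0.01 over all genes tested.

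Hoxd9 at E9.5 was 11.22, 10.57 and 11.22 in open and 8.76, 9.93 and 9.03 in closed tissue, with closed replicate 2 the highest of its group. The difference was -1.77 (SE 0.32, adjusted p = 0.0038). Hoxd8 was 10.20, 9.98 and 10.29 in open and 8.55, 9.16 and 8.57 in closed tissue, again with closed replicate 2 the highest. Its difference was -1.40 (SE 0.21, adjusted p = 0.00107).

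Hoxb9 stood the other way round at E9.5. It was 5.56, 5.61 and 5.67 in open and 6.50, 6.16 and 6.65 in closed tissue, with no overlap. The difference was 0.82 (SE 0.13, adjusted p = 0.00183), 1.76-fold higher in closed tissue. Without open E9.5 replicates 1 and 2, the arrays of highest 3-prime excess, it was 0.77 with an adjusted p of 0.07.

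The other 3 genes did not pass at E9.5. Hoxa9 was 13.09, 13.12 and 13 in open and 12.62, 12.77 and 12.55 in closed tissue, which do not overlap, and differed by -0.42 (SE 0.12, adjusted p = 0.0534). When arrays that share a replicate number across the regions were treated as pairs (a replicate block), the Hoxa9 difference was the same size and passed (adjusted p = 0.00459), as it did in 6 other alternatives (adjusted p = 0.00275 to 0.785 over all). Hoxc8 was 10.26, 10.42 and 10.40 against 10.59, 9.90 and 10.45, a difference of -0.05 with a 95% confidence interval from -0.38 to 0.29. Hoxc9 was 8.89, 8.98 and 9.62 against 9.10, 8.92 and 9.61, a difference of 0.04 with an interval from -0.53 to 0.61. The groups of both Hoxc genes overlap. For Hoxc8 and Hoxc9 these intervals exclude differences as large as those at E8.5.

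**Figure D2:**
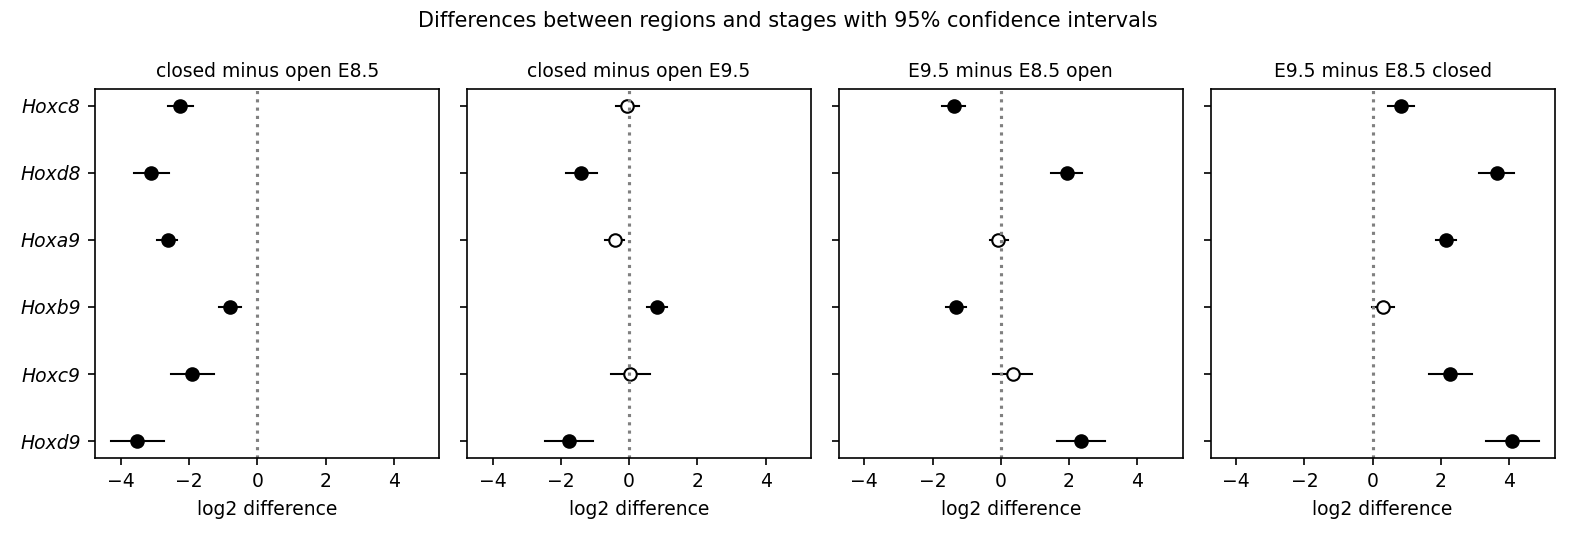
Log2 difference (horizontal axis) of the 6 genes in 4 comparisons with 95% confidence intervals from the linear model; filled circles passed an adjusted p of 0.05 and open circles did not. All 6 genes lie below 0 for closed minus open at E8.5, and at E9.5 they spread from -1.77 for Hoxd9 to 0.82 for Hoxb9.

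From E8.5 to E9.5 in the closed tube, 5 of the 6 genes rose and Hoxb9 did not pass. Of all genes tested, 2.42% were called in this comparison, 0.96% higher and 1.46% lower. Groups did not overlap for the same 5 genes, and for 21.2% of all genes. The median was 2.21 over the 6 genes and -0.03 over all genes tested. Hoxd9 rose by 4.10 (SE 0.36, adjusted p = 7.13e-05) and Hoxd8 by 3.64 (SE 0.23, adjusted p = 1.06e-05), that is 17.2-fold and 12.5-fold. They ranked 2 and 3 by size of difference among the 13338 genes, behind the next gene up the Hoxc cluster, Hoxc10 (6.23, from a closed E8.5 mean of 3.63, below the filter level).

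Hoxc9 rose in the closed tube by 2.28 (SE 0.29, adjusted p = 0.00115) and Hoxa9 by 2.14 (SE 0.13, adjusted p = 1.06e-05). The second Hoxa9 probe set gave 0.96, with an adjusted p of 0.254, so the call for Hoxa9 rests on the leading probe set. Hoxc8 rose by 0.83 (SE 0.17, adjusted p = 0.028). That call for Hoxc8 ended in 9 of 23 alternatives, among them the replicate block (0.80, adjusted p = 0.0606) and either closed E8.5 array left out (0.76 with 0.156 without replicate 1, and 0.90 with 0.0959 without replicate 2). It also ended without open E8.5 replicate 3 (adjusted p = 0.0536) and without closed E9.5 replicates 1 or 3 (0.0814 and 0.0936). Hoxb9 differed by 0.30 (SE 0.15, adjusted p = 0.573), and its groups overlap: 6.10 and 6.18 at E8.5 lie around the lowest E9.5 value of 6.16.

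In open tissue the genes went apart between the stages: 2 rose, 2 fell and 2 did not pass. Of all genes tested, 5.02% were called, 3.61% higher and 1.42% lower. Hoxd9 rose by 2.35 (SE 0.32, adjusted p = 0.00117) and Hoxd8 by 1.93 (SE 0.21, adjusted p = 0.000272). Hoxc8 changed by -1.38 (SE 0.15, adjusted p = 0.000318) and Hoxb9 by -1.31 (SE 0.13, adjusted p = 0.000163), so both fell, by 2.61-fold and 2.49-fold. The stages did not overlap for these 4 genes, as for 21.8% of all genes. Hoxa9 differed by -0.07 (SE 0.12, adjusted p = 0.8) and Hoxc9 by 0.35 (SE 0.26, adjusted p = 0.528), with overlapping groups. The median over the 6 genes was 0.14, against -0.02 over all genes.

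These comparisons share groups of arrays, so the changes of region and stage are not independent of each other. The group means of each gene, given with the SD, were ordered as follows. For Hoxa9 the order was open E8.5 (13.14 ± 0.10) and open E9.5 (13.07 ± 0.06), which overlap, then closed E9.5 (12.65 ± 0.12) and closed E8.5 (10.51 ± 0.38). For Hoxc9 it was closed E9.5 (9.21 ± 0.36), open E9.5 (9.17 ± 0.40) and open E8.5 (8.82 ± 0.47), which overlap, then closed E8.5 (6.92 ± 0.07). For Hoxc8 the order was open E8.5 (11.74 ± 0.09, SD, n = 3), then open E9.5 (10.36 ± 0.09, n = 3) and closed E9.5 (10.31 ± 0.36, n = 3), which overlap, then closed E8.5 (9.49 ± 0.09, n = 2). For Hoxb9 it was open E8.5 (6.93 ± 0.09), closed E9.5 (6.44 ± 0.26), closed E8.5 (6.14 ± 0.06) and open E9.5 (5.62 ± 0.05), where both closed groups overlap. For Hoxd8 it was open E9.5 (10.16 ± 0.16), closed E9.5 (8.76 ± 0.35), open E8.5 (8.23 ± 0.37) and closed E8.5 (5.12 ± 0.13), with closed E9.5 and open E8.5 overlapping. Hoxd9 had the same order of means, with closed E9.5 (9.24 ± 0.61) and open E8.5 (8.65 ± 0.28) overlapping.

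The change of the region difference between the stages was tested as an interaction, closed minus open at E9.5 minus that at E8.5. It was called for 5 of the 6 genes, all higher, with 1.25% of all genes called, 0.3% higher and 0.952% lower (167 genes, and 452 with the replicate block). The values were 2.21 for Hoxa9 (SE 0.18, adjusted p = 0.000183), 2.21 for Hoxc8 (SE 0.23, adjusted p = 0.000941) and 1.61 for Hoxb9 (SE 0.20, adjusted p = 0.00224). Hoxc9 (1.94, SE 0.39, adjusted p = 0.0385) and Hoxd8 (1.71, SE 0.31, adjusted p = 0.0239) passed by less. Hoxd9 did not pass (1.75, SE 0.48, adjusted p = 0.15), although its estimate is as large as that of Hoxd8. The Hoxa9 interaction was 1.31 on its second probe set (adjusted p = 0.311).

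The calls of Hoxc9 and Hoxd8 in the interaction did not last when arrays were left out. The Hoxd8 call ended without open E8.5 replicates 2 or 3, either closed E8.5 array, or open E9.5 replicates 1 or 2 (adjusted p = 0.0575 to 0.0773), and was 1.58 with an adjusted p of 0.199 without both of the last. The Hoxc9 call ended without each of those arrays and without any closed E9.5 array (adjusted p = 0.0567 to 0.108), after median centring (0.0591), and without both open E9.5 replicates 1 and 2 (1.48, adjusted p = 0.314). The direction stayed above 0 for both genes, from 1.51 to 1.91 for Hoxd8 and from 1.48 to 2.17 for Hoxc9 over all alternatives.

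The 4 clusters were compared at equal paralogue number through the log2 difference between 2 paralogues within each array, which removes anything the array does to both genes alike. This shows unequal change of signal between the probe sets of 2 paralogues, not that either one stayed constant. Probe sets can also respond unequally to the same change of RNA. The 2 probe sets of Hoxa9 gave -2.63 and -1.52 for closed minus open at E8.5. The part of unequal probe response in the pair values was not tested. Paralogue 8 gave 1 pair and paralogue 9 gave 6, 7 in all, and Benjamini-Hochberg adjustment was over those 7. Each value was tested by an exact two-sided permutation test over 200 arrangements of the region labels within stage or of the stage labels within region, where the smallest p possible is 0.005. In each family 6 of the 7 pairs reached that smallest p (adjusted p = 0.00583), and Hoxc9 with Hoxa9 was the pair that did not. The 6 pairs of paralogue 9 are built from 4 genes, so they are not independent results. Each of them that passed holds Hoxb9 or Hoxd9. With arrays paired by replicate number, the 5 pairs of arrays allow no exact p below 0.0625, so 0 of 7 could pass for the regions.

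Between regions, the Hoxd gene was lower in closed tissue relative to open than its partner in each pair. Averaged over the stages, the closed-minus-open difference of Hoxd9 was more negative than that of Hoxb9 by 2.65, than that of Hoxc9 by 1.71 and than that of Hoxa9 by 1.11 (values -2.65, -1.71 and -1.11). For paralogue 8, Hoxd8 minus Hoxc8 gave -1.10. Hoxb9 stood at the other end of the group 9 genes: Hoxb9 minus Hoxa9 gave 1.54 and Hoxc9 minus Hoxb9 gave -0.94. Hoxc9 minus Hoxa9 gave 0.60 (exact permutation p = 0.075) and did not pass, except without open E9.5 replicate 3 (0.73, adjusted p = 0.04).

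Between stages Hoxd9 again stood at one end and Hoxb9 at the other. Averaged over the regions, E9.5 minus E8.5 of Hoxd9 exceeded that of Hoxb9 by 3.73, of Hoxa9 by 2.19 and of Hoxc9 by 1.91, and Hoxd8 exceeded Hoxc8 by 3.06. Hoxb9 lay below Hoxa9 (-1.54), and Hoxc9 lay above Hoxb9 (1.82). Hoxc9 minus Hoxa9 gave 0.28 (exact permutation p = 0.33). With the mean of all probe sets of Hoxa9 that last value was 0.65 and passed (adjusted p = 0.015), so this pair turns on the Hoxa9 probe set.

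The within-array values for Hoxd9 minus Hoxb9 show the size of the contrast. They lay from 1.43 to 2.13 in open E8.5 arrays, from -1.49 to -0.51 in closed E8.5, from 4.96 to 5.65 in open E9.5 and from 2.26 to 3.77 in closed E9.5 arrays. No 2 of the 4 groups overlap.

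**Figure D3:**
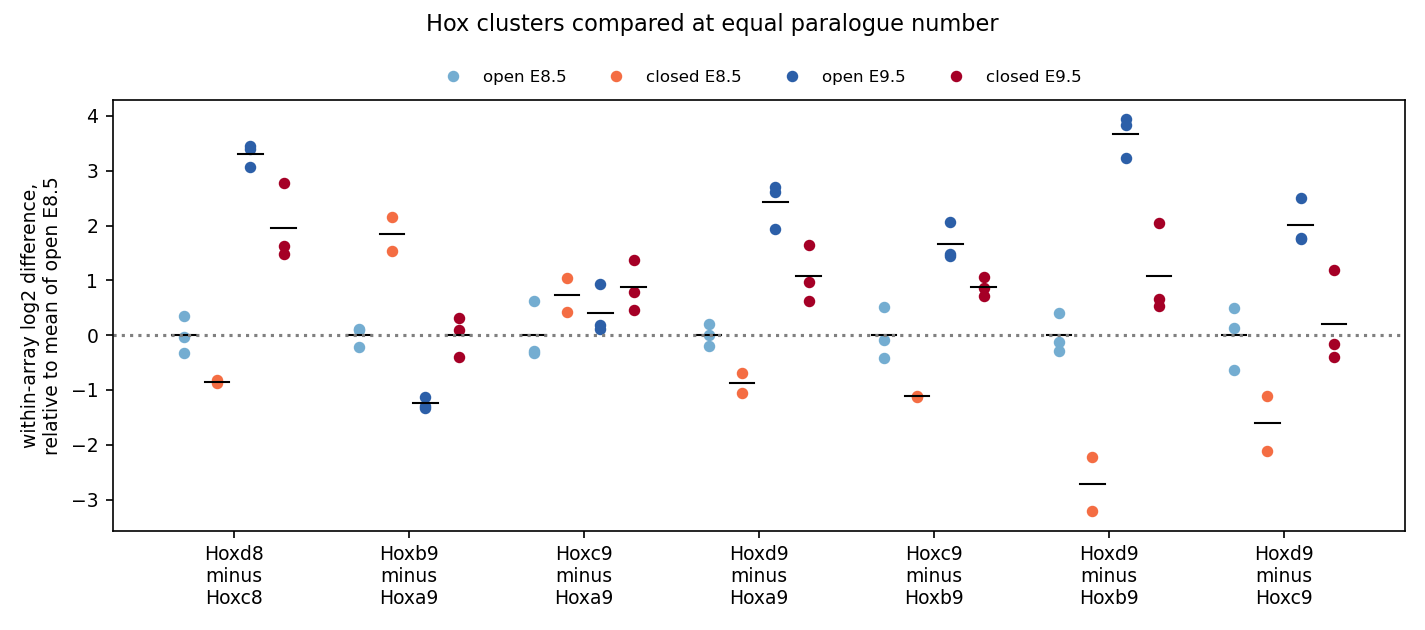
Log2 difference between 2 paralogues within each array (vertical axis), relative to the mean of the open E8.5 arrays, for 7 pairs of equal paralogue number; points are arrays coloured by group and bars are group means. The 3 pairs of Hoxd9 and the pair of Hoxd8 are lowest in closed E8.5 and highest in open E9.5 tissue, and Hoxb9 minus Hoxa9 runs the opposite way.

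Across the 11 arrays Hoxd8 and Hoxd9 had a Pearson correlation of 0.99, given as a description since the arrays share 4 groups. Hoxa9 and Hoxc9 correlated with both Hoxd genes at 0.84 to 0.88, while Hoxb9 was at -0.31 with Hoxd8 and -0.34 with Hoxd9. Hoxc8 correlated at 0.70 with Hoxa9 and at 0.68 with Hoxb9. The gene outside the list most like Hoxd8 was Hoxc5 (0.985), followed by Blvra (0.982), which encodes biliverdin reductase, and Sparcl1 (0.969). The same first genes stood at Hoxd9: Blvra (0.979) and Hoxc5 (0.972), then Skil (0.956). For Hoxc8 they were Pmp22 (0.942), Hoxa7 (0.933) and Slc9a3r1 (0.929), and for Hoxa9 the apelin receptor gene Aplnr (0.952), Tpd52 (0.947) and the FGF feedback inhibitor gene Il17rd (0.946). Hoxc9 was most like Cib1 (0.929), Hebp2 (0.919) and Pcdh7 (0.917), and Hoxb9 most like Ldb2 (0.903), Stk17b (0.876) and Gm32743 (0.874).

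The neighbouring paralogue groups place these genes along the clusters. Of the Hox genes of groups 6 and 7, 3 were tested, and at E8.5 Hoxa7 (-1.63, SE 0.16) and Hoxc6 (-1.41, SE 0.37) were lower in closed tissue while Hoxb6 (-0.68, adjusted p = 0.196) did not pass. At E9.5 Hoxa7 gave 0.00, Hoxc6 -0.25 and Hoxb6 -0.35, and these did not pass. Of the 10 measured Hox genes of groups 10 to 13, 7 passed the filter on the mean over all arrays. For 4 of those, Hoxd10, Hoxa11, Hoxd11 and Hoxd13, the mean was raised by open E9.5 tissue (9.25, 8.03, 5.99 and 5.89), with the other group means from 3.16 to 5.03, near or below the filter level, so counts over these genes are not given. At E8.5 Hoxc10 was 5.35 in open and 3.63 in closed tissue, the latter below the filter level, and the difference was called (-1.72). Hoxa10 and Hoxc10 had levels clear of the filter in both regions at E9.5, 9.48 in open and 7.33 in closed tissue for Hoxa10 and 11.95 and 9.86 for Hoxc10, and were lower in closed tissue (-2.14 and -2.09). Hoxd10 was 9.25 in open and 5.03 in closed tissue at E9.5. In the interaction Hoxa7 was called higher (1.63, adjusted p = 0.00313), and Hoxa11 (-3.32) and Hoxd10 (-4.16), both below the filter level in both regions at E8.5, were called lower.

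**Figure D4:**
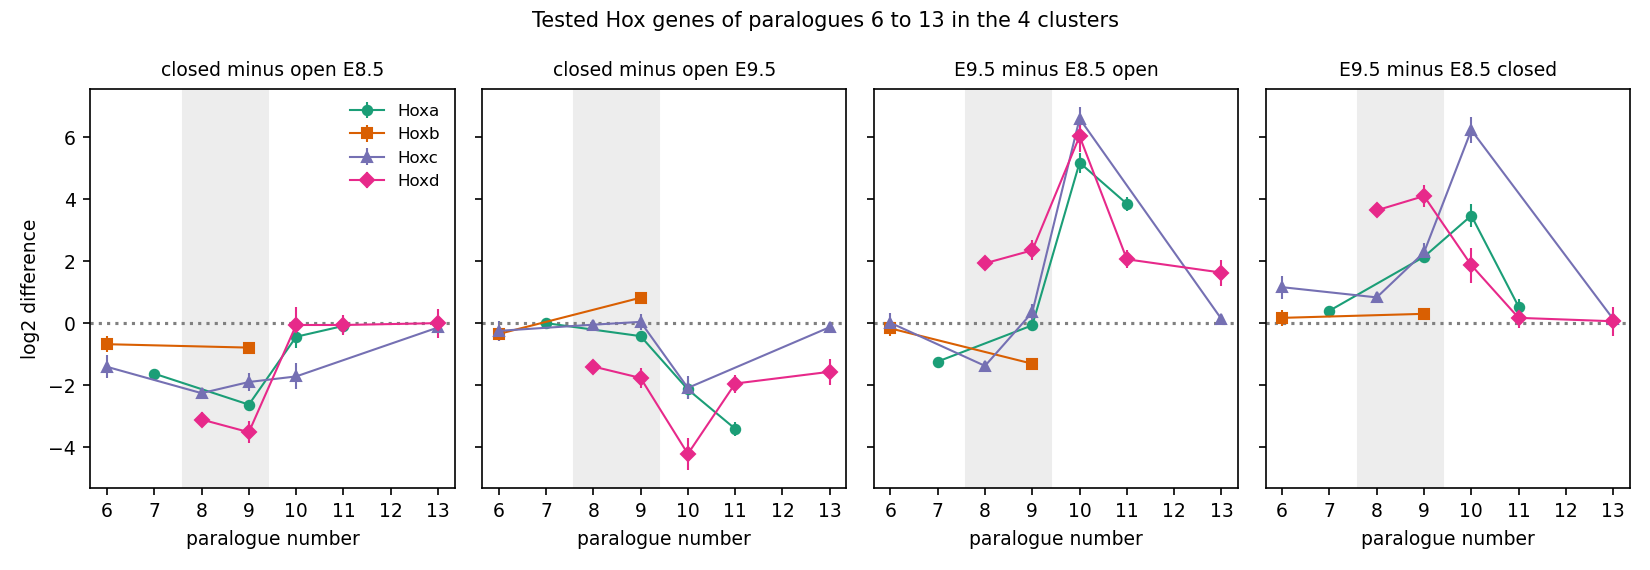
Log2 difference (vertical axis, bars are SE) of tested Hox genes against paralogue number for the 4 clusters in 4 comparisons; lines join tested genes of 1 cluster and the grey band marks paralogues 8 and 9. At E8.5 the lowest values lie at Hoxd8 and Hoxd9 (-3.11 and -3.52) and at E9.5 at Hoxd10 (-4.22). Hoxd10, Hoxa11, Hoxd11 and Hoxd13 were below the filter level in both regions at E8.5, so their region differences at that stage cannot be read.

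Of 17 tested genes of a list of trunk Hox regulators, 10 were lower in closed tissue at E8.5 and 2 were higher (median -1.30). The lower ones included the homeobox genes Evx1 (-4.81) and Cdx2 (-3.51), the ligand gene Fgf8 (-4.37, from 8.21 in open tissue to 3.84, below the filter level, in closed tissue) and Cdx4 (-2.85). Genes of the retinoic acid pathway lay on both sides. Aldh1a2 (3.50), which makes retinoic acid, and the receptor gene Rarb (4.04) were the higher ones, while Cyp26a1 (-4.11), which breaks it down, and the receptor gene Rarg (-1.69) were lower. At E9.5, 10 were again lower and 3 higher, with Cyp26a1 at -5.28, Cdx2 at -2.05, Cdx4 at -2.02 and Nr6a1, a nuclear receptor gene of trunk development, at 2.32. The Cdx genes did not change alike between the stages. Cdx1 fell in open tissue (-2.95, adjusted p = 0.00242) and in closed tissue (-2.80, adjusted p = 0.0112), while Cdx2 (1.23) and Cdx4 (0.89) rose in closed tissue and gave -0.24 and 0.06 in open tissue, where neither passed. Nr6a1 fell by 3.51 in open tissue (adjusted p = 4.05e-06) and by 0.97 in the closed tube (adjusted p = 0.037), and its interaction was 2.53. Gdf11, a ligand gene known to promote posterior Hox genes, did not pass in any of these 4 comparisons, with group means from 4.67 to 4.86, close to the filter level.

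Of 8 tested genes of Hox cofactors, 3 had more signal in the closed tube at E8.5 and the other 5 did not pass: Meis1 (3.09), Pbx3 (2.74) and Meis2 (1.63), opposite in direction to the 6 trunk Hox genes. At E9.5 Meis1 (3.10), Pbx3 (2.67), Meis2 (2.22) and Pknox2 (1.02) were higher and the other 4 did not pass. Between the stages 1 of the 8 fell in open tissue (Pknox2, -0.89). Of 17 genes of Polycomb and Trithorax complexes, which keep Hox genes silent or active, 2 were higher and 1 was lower in closed tissue at each stage: Bmi1 (1.35 at E8.5, 0.77 at E9.5) and Phc2 (0.95 and 0.69) were higher and Jarid2 (-0.80 and -1.26) was lower. In open tissue Jarid2 (1.08) and the histone demethylase gene Kdm6b (0.79) rose between the stages and Cbx7 (-0.65) fell. The share called over all genes tested was 7.17% between the regions at E8.5, 8.54% at E9.5, and 5.02% between the stages in open tissue. Of 6 genes of motor neurons and their precursors, which later depend on Hox genes for their columns, Olig2 (4.09 at E8.5, 3.95 at E9.5) and Neurog2 (1.68 and 2.78) were higher and Mnx1 (-2.81 and -2.25), which the notochord also expresses, was lower in closed tissue at both stages. Olig2 was below the filter level in open tissue at both stages (3.65 and 3.66), so the size of its difference is uncertain.

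The labelled tissue held its neural markers: Sox1, Sox2, Sox3, Pax6, Nes and Cdh2 all had group means above the filter level in every group. Their summed linear signal was 5260 to 5780 in open E8.5 arrays, 8050 to 8600 in closed E8.5, 5570 to 6380 in open E9.5 and 7200 to 8010 in closed E9.5. Trunk Hox genes are also expressed in mesoderm, and markers of other tissues moved with the regions. The summed signal of 8 presomitic mesoderm markers was 1980 to 2580 in open E8.5 arrays, 1000 to 1340 in closed E8.5, 1230 to 2050 in open E9.5 and 914 to 1340 in closed E9.5. Of 7 tested, 3 were lower in closed tissue at both stages (Hes7, Dll3 and Tbx6) and 1 was higher at E9.5, and Ripply2 was below the filter level in all groups. The sum of 8 surface ectoderm markers was 1320 to 1690 in open and 733 to 880 in closed tissue at E8.5. At E9.5 it was 982 to 1070 and 780 to 999, which overlap. Among the 8, 3 were lower in closed tissue at E8.5 (Grhl3, Krt8 and Krt18) and 2 at E9.5 (Grhl3 and Epcam), and 0 were higher. Their median difference was -0.68 at E8.5 and -0.01 at E9.5. Tfap2a (0.82 and 0.60), and Krt8 at E9.5 (0.51), pointed the other way and did not pass. The sum of the 4 notochord markers measured, of 6 listed (T and Noto had no value), was 2080 to 2610 in open and 1360 to 1720 in closed tissue at E8.5. At E9.5 it was higher in closed tissue, 2260 to 2770 against 1450 to 1780. Shh, with group means from 10.11 to 11.08, made up most of this sum in every group. At E8.5 Shh (-0.89) and Chrd (-0.72) were lower in closed tissue, and Foxa2 (0.59) and Nog (0.58) did not pass. At E9.5 Shh (0.74) and Foxa2 (0.87) were higher, and Chrd (-0.35) and Nog (0.18) did not pass.

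Somite markers were low throughout except in 1 of the 2 closed E8.5 arrays. Their summed signal was 235 and 637 in these 2 arrays and 193 to 229 in the other 9, with Meox2 and Uncx below the filter level in all groups. The 4 somite markers tested did not pass between the regions at either stage. Lateral and intermediate mesoderm markers stayed between 161 and 188, with Hand2, Osr1, Gata4 and Lhx1 below the filter level in all groups. Endoderm markers summed to 892 to 1240 in open and 1030 to 1370 in closed tissue at E8.5, and to 898 to 1110 and 1570 to 2000 at E9.5. Foxa3 was below the filter level in all groups, and Apela (10.55) made up most of the closed E9.5 sum. Of 3 tested, 1 was higher in closed tissue at each stage (Apela, 0.93 and 1.68). Another 1 was lower at each stage, Cldn6 at E8.5 (-2.19) and Foxa1 at E9.5 (-0.80). The summed signal of 8 blood and vessel markers moved with the stages, from 229 to 780 at E8.5 to 4960 to 7250 at E9.5 in open tissue. In closed tissue it went from 800 to 927 to 2300 to 5800. The globin genes Hbb-y (5.18), Hbb-bh1 (3.23) and Hba-x (2.36) rose in open tissue, while Kdr gave -0.43 and did not pass. In closed tissue the 4 tested did not pass, with Hbb-y at 2.81, Hbb-bh1 at 1.67, Hba-x at 1.28 and Kdr at 0.13. Among the 8 listed, Gata1, Pecam1, Cdh5 and Tie1 were below the filter level in all groups. The part of these tissues in the Hox differences was not tested. In bulk tissue, fewer cells of a type and less RNA per cell cannot be told apart.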

How the data were processed

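The 11 samples deposited, of 12 that the authors hybridized, were measured on Affymetrix GeneChip Mouse Genome 430 2.0 arrays after two-cycle labelling of 50 ng, per the labels. The deposited values are log2 signal of 45101 probe sets, from 2.37 to 14.72. The submitters' processing notes name MAS5 with no role, and the summary and normalization method is not given in the sources used here. The values were used as deposited, with no detection calls. Of the probe sets, 34945 carry 1 symbol in the platform annotation, 932 several and 9160 none, and 64 are controls. Replicates are biological ones, pools by litter, per the labels.

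Per gene, of 18193, the probe set with the highest mean led. Those with a mean at or above the 40th percentile (4.30) were tested. The 4 group means were fitted with limma 3.58.1 in R 4.3.3 (eBayes with trend, 7 residual degrees of freedom). Paralogue pairs were tested by exact permutation in Python 3.11.15. Hoxb8 pairs could not be formed, which left 7 of the 9 pairs planned. Scripts were tested on simulated data. The genes, lists and tests were chosen with earlier results of these data known. Named genes are the members, from each list called genes among the 2 of smallest p in each direction (others, as examples of a count, were chosen after their values were seen), and the 3 genes most correlated with each member.

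Arrays sharing a number across the regions deviated together from their group means (the correlation was 0.58 and 0.70 for the E8.5 pairs, and 0.31, 0.34 and 0.69 for the E9.5 pairs). Some arrays of different number also did, at 0.31 (E8.5) and at 0.26 and 0.32 (E9.5). Every same-number value was above 0.1, so the numbers, whose meaning the labels do not give, were taken as pairs in a block as an alternative. With 2 closed arrays at E8.5 the 2 deviations mirror each other. Alternatives were another scaling, filter or probe set, the eBayes trend, array weights, only the groups compared, a 3-prime covariate, the block, and arrays left out.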

Additional observations from a re-analysis of the deposited data

Results flagged for a closer look

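The region difference, closed minus open, was called as changed between the stages for 5 of the 6 genes, which is what marks them here. The test was the interaction of the linear model (limma, adjusted over 13338 genes). Of all genes, 1.25% were called in it, 0.3% higher and 0.952% lower. The calls of Hoxc9 and Hoxd8 did not last when arrays were left out. Hoxa9 did not pass on its second probe set (1.31, adjusted p = 0.311). The change was 2.21 for Hoxa9, from -2.63 at E8.5 to -0.42 at E9.5. It was 2.21 for Hoxc8, from -2.26 to -0.05, and 1.94 for Hoxc9, from -1.90 to 0.04. It was 1.71 for Hoxd8, from -3.11 to -1.40. For Hoxb9 it was 1.61, and there the sign turned, from -0.79 to 0.82, each past the threshold at its own stage. Groups of 2 or 3 arrays were too small to be searched for single deviating arrays.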

How the results depend on the processing

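No called difference changed sign among the 30 tests of a gene in a comparison, and 23 kept their side of the threshold in every alternative run. All 6 genes stayed lower in closed tissue at E8.5 in all 23 alternatives. The number of the 6 called in the interaction was 3 to 5 with single arrays left out and 3 without open E9.5 replicates 1 and 2, against 5. It was 3 without open E8.5 replicates 2 or 3, either closed E8.5 array, or open E9.5 replicates 1 or 2. For the stages in closed tissue it was 4 or 5.

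Counts over all genes moved more. Closed minus open at E8.5 gave 1519 calls with the 3-prime covariate, against 957. At E9.5 it gave 1764 with that covariate, 3424 with array weights, 2221 with the replicate block and 603 without open E9.5 replicates 1 and 2, against 1139. The stages in open tissue gave 4301 with array weights and 182 without those 2 arrays, against 670. Single arrays left out gave 367 to 1262, the most without open E9.5 replicate 3, 367 when open E8.5 replicate 1 was omitted, 422 for its replicate 3, 436 for open E9.5 replicate 1 and 414 for its replicate 2. In that comparison 481 genes were higher and 189 lower as deposited, and 393 and 248 after quantile normalization. The stages in closed tissue gave 730 with the covariate, 215 with array weights, 150 with only the groups compared and 174 to 375 with single arrays left out (174 without closed E9.5 replicate 2 and 210 without closed E8.5 replicate 2), against 323. The interaction gave 297 with the covariate, 452 with the replicate block, 72 without those 2 arrays and 84 to 239 with single arrays left out, against 167; it was 84 to 106 without any open E8.5 array, closed E8.5 replicate 2, open E9.5 replicates 1 or 2, or closed E9.5 replicates 2 or 3. A group left with 1 array took its spread from the remaining groups. The cause of these shifts was not tested.

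With open and closed arrays paired by number, 5 pairs allow no p below 0.0625, so 0 of the 7 paralogue pairs can pass the exact sign-flip test (replicate block), and 7 have that p with the same signs. For Hoxa9 at E9.5 and Hoxc8 between the stages in closed tissue the block changed the call, as given above, and it changed no other call of the 6 genes. Single arrays left out gave 6 or 7 pairs for the regions and 6 for the stages. The closed E8.5 group rests on 2 arrays.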
